A study of Homo sapiens with 18 samples.

Results

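RAS-ERK feedback genes are the genes that the ERK kinases switch on and whose products in turn restrain, or report on, RAS-ERK signalling. The 10 genes described here were chosen by symbol: DUSP4, DUSP5, DUSP6, SPRY2, SPRY4, SPRED1, SPRED2, ETV4, ETV5 and PHLDA1. All 10 were found in each of the 4 deposited tables, among 59396 distinct gene names in all. RNA was sequenced from H929 and MM1S, human myeloma lines of plasma cell origin. The study lowered RBM39, an RNA-binding protein of pre-mRNA splicing, with a short hairpin RNA (shRBM39), or treated the cells with indisulam, a sulfonamide that directs RBM39 protein to the DCAF15 ubiquitin ligase. In H929, 3 libraries labelled shRBM39 stood against 3 labelled scramble, a control hairpin. In MM1S, 2 shRBM39 libraries stood against 2 scramble libraries, and 3 libraries treated with indisulam against 3 that received the solvent DMSO. RNA immunoprecipitation (RIP) from MM1S gave 1 library pulled down with anti-RBM39 and 1 with a control IgG. The labels give no hairpin sequence, dose, time or number of clones, and do not say whether replicates were separate cultures, so p-values here speak only of the variation among these libraries, which may be technical.

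In the RAS-ERK pathway, receptors and adaptors load RAS with GTP, RAS recruits RAF kinases, RAF activates MEK, and MEK phosphorylates ERK. Active ERK enters the nucleus and drives transcription of its own brakes: the DUSP4, DUSP5 and DUSP6 phosphatases, which remove phosphate from ERK, and the Sprouty (SPRY) and Sprouty-related (SPRED) proteins, which act on RAS and RAF. ETV4 and ETV5, transcription factors of the ETS family, and PHLDA1, a pleckstrin homology-like protein, are further transcripts raised by ERK, and such genes are widely used as a readout of pathway output in RAS-mutant tumours.

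Some features of the libraries touch the results. RBM39 itself was at 4.56, 4.43 and 4.51 FPKM in the H929 libraries labelled scramble and at 38.3, 38.6 and 35.6 FPKM in those labelled shRBM39, which goes against the labels, so the H929 groups are named only as labelled. In MM1S, RBM39 was at 176 and 205 TPM with scramble and at 64.8 and 52.2 TPM with shRBM39. Its transcript was at 189, 178 and 196 TPM in DMSO and at 226, 217 and 149 TPM with indisulam, which acts on the protein, so the transcript is no check of that treatment. Indisulam replicate 3 stood apart from its group: its root mean square distance from the mean of its group mates was 0.721 on the log2(TPM + 1) scale, against 0.507 and 0.473 for the other indisulam libraries and 0.346 to 0.364 in DMSO. All 9 plasma cell markers were at a group mean of 1 or more in each of the 6 RNA-seq groups, while no B cell marker reached 1 and CD3D was at or near 0 in all of them. In H929 the summed plasma cell markers were at 5010.0 to 5130.0 FPKM in scramble and 7920.0 to 8060.0 FPKM in the libraries labelled shRBM39, and the summed T cell markers, nearly all CD3E, at 39.2 to 46.8 and 15.5 to 18.3 FPKM. Summed macrophage markers, nearly all CD68, were at 25.1 to 26.9 and 13.4 to 14.7 FPKM. In MM1S the summed plasma cell markers were at 4580.0 to 6830.0 TPM with scramble, 7480.0 to 8650.0 TPM with shRBM39, 7530.0 to 7880.0 TPM in DMSO and 5940.0 to 7180.0 TPM with indisulam. JCHAIN and XBP1 had the largest part of these sums in H929, and the list did not move as a whole: PRDM1, CD38 and SLAMF7 had lower means in the H929 libraries labelled shRBM39, as did SDC1, IRF4 and PRDM1 with shRBM39 in MM1S. T cell markers in MM1S summed to 4.88 to 5.67 TPM with scramble, 2.22 to 2.69 TPM with shRBM39, 3.5 to 4.59 TPM in DMSO and 1.29 to 1.58 TPM with indisulam. Macrophage markers in MM1S summed to 15.9 to 21.1 TPM, 5.7 to 9.79 TPM, 9.5 to 10.6 TPM and 7.22 to 8.3 TPM in the same order. Fibroblast markers summed to at most 3.63 and epithelial markers to at most 6.2 in any library. The part of these shifts in the results was not tested. Relative depth could be read only in H929, where it ran from 0.975 to 1.147 relative to scramble replicate 1.

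In H929, 7 of the 10 genes were lower in the libraries labelled shRBM39, 2 were higher and 1 did not pass the test. PHLDA1 was lowest relative to scramble, SPRY2 and SPRY4 followed, and DUSP6 stood on the other side, higher by 1.77-fold. Differences were tested with limma on log2(FPKM + 1) over all genes at 1 FPKM or more in at least 3 libraries, and the threshold for a call was 0.05 on the p adjusted by Benjamini-Hochberg. This background was high: 72.2% of all 10360 genes tested were called, 48.1% lower and 24.1% higher, against 9 of the 10 members. Groups without overlap were found for 74.7% of all genes (25.1% higher, 49.6% lower) and likewise for 9 members. In a bulk library, fewer cells that express a gene and less RNA per cell cannot be told apart.

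The phosphatases split. DUSP6, which acts mainly on cytoplasmic ERK, was at 62.7, 58.6 and 60.4 FPKM in scramble and at 107, 104 and 111 FPKM in the libraries labelled shRBM39. Every library of the second group lay above every library of the first, with a log2 difference of 0.81 (limma adjusted p = 3.24e-09, SE 0.0431). DUSP5, a nuclear ERK phosphatase, was the most abundant of the 10 genes, at 519, 522 and 526 FPKM against 425, 386 and 419 FPKM. It was lower by a small step without overlap, a log2 difference of -0.35 (limma adjusted p = 8.68e-06, SE 0.0434). DUSP4, a nuclear phosphatase that also acts on other MAP kinases, was at 42.5, 45.8 and 49 FPKM in scramble and at 28.7, 32.1 and 31.3 FPKM in the other group. Its groups did not overlap either, with a log2 difference of -0.56 (limma adjusted p = 2.00e-06, SE 0.0594). The ratio of DUSP6 to DUSP5 within a library needs no scaling between libraries. It was 0.121, 0.112 and 0.115 in scramble and 0.251, 0.27 and 0.264 in the libraries labelled shRBM39, so the balance between these phosphatases was shifted towards DUSP6 in every one of the latter.

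**Figure D1:**
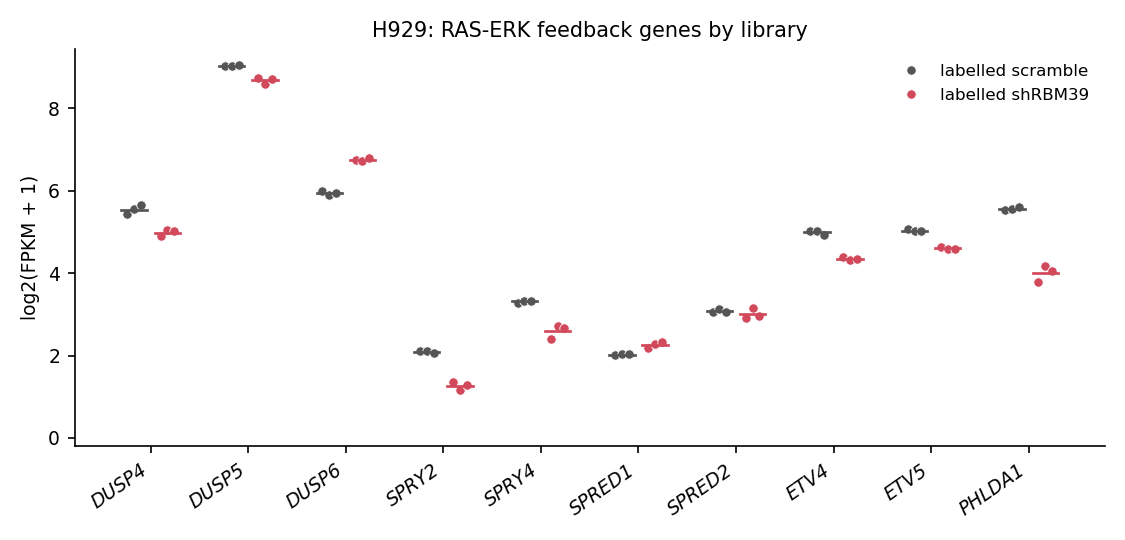
Levels of the 10 genes in H929 as log2(FPKM + 1), with a point for each of 3 libraries labelled scramble (grey) and 3 labelled shRBM39 (red) and a bar at the mean. PHLDA1, SPRY2, SPRY4, ETV4, ETV5, DUSP4 and DUSP5 lie lower in the red points, DUSP6 and SPRED1 lie higher, and SPRED2 overlaps.

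Sprouty and SPRED genes, both coding for membrane-bound brakes, did not move as a unit. SPRY2 was at 3.29, 3.33 and 3.2 FPKM in scramble and at 1.57, 1.24 and 1.44 FPKM in the libraries labelled shRBM39, a log2 difference of -0.83 (limma adjusted p = 3.36e-07, SE 0.0727). SPRY4 was at 8.75, 8.98 and 9.07 FPKM against 4.31, 5.56 and 5.39 FPKM, a log2 difference of -0.71 (limma adjusted p = 2.79e-06, SE 0.0784). SPRY2 and SPRY4 were thus lower in each library of the second group. SPRY1, a Sprouty gene outside the 10, was at 4.49 ± 0.737 against 3.94 ± 0.395 FPKM (n = 3 each), a log2 value of 0.15 that did not pass (limma adjusted p = 0.19) and 0.31 after median scaling (limma adjusted p = 0.0105). SPRED1, which carries the RAS inhibitor NF1 to the membrane, was slightly higher, at 3.55, 3.85 and 4.02 FPKM against 3.01, 3.1 and 3.1 FPKM (log2 difference 0.24, limma adjusted p = 0.0057, SE 0.0669). Its relative SPRED2 overlapped between the groups, at 7.38, 7.71 and 7.34 FPKM in scramble and at 6.52, 7.92 and 6.75 FPKM in the others. That difference of -0.08 on the log2 scale did not pass the test (95% interval -0.23 to 0.08, limma adjusted p = 0.357), and its sign turned after median scaling, to 0.09.

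The transcription factor genes and PHLDA1 were lower. ETV4 was at 31.3, 31.8 and 29.5 FPKM in scramble and at 19.9, 19 and 19.3 FPKM in the libraries labelled shRBM39 (log2 difference -0.64, limma adjusted p = 1.03e-07, SE 0.0496). ETV5 was at 32.4, 31.4 and 31.3 FPKM against 23.8, 23.1 and 23.1 FPKM (log2 difference -0.43, limma adjusted p = 2.12e-06, SE 0.0456). In scramble these close paralogs had overlapping levels, while in the other group ETV5 lay above ETV4 in each library. PHLDA1 was at 45.4, 46.3 and 47.7 FPKM in scramble and at 12.8, 16.9 and 15.6 FPKM in the libraries labelled shRBM39. That was 0.325 times the scramble mean, a log2 difference of -1.57 (limma adjusted p = 2.23e-09, SE 0.0782). Over all genes tested in H929, the median difference was -0.134 on the log2 scale. After each library was scaled to its median, the same 2 genes remained higher and the same 7 lower, with DUSP6 at 0.98, PHLDA1 at -1.4 and DUSP5, the smallest of the lower differences, at -0.19. Of all 10360 genes, 3932 were then called higher and 3312 lower.

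The 250 bases before the transcription start are shown for the genes that differed most in each direction in H929, DUSP6 and PHLDA1, and for SPRY2, since these 3 windows held the only motif matches among the member windows searched. RefSeq (GRCh38.p14) windows were searched for 6 of the 10 genes, in 9 windows: DUSP6, PHLDA1, SPRY2, SPRY4, SPRED1 and SPRED2. DUSP4, DUSP5, ETV4 and ETV5 were not searched. For DUSP4 this was set by the selection, which left out member windows on its chromosome. Capitals mark the short ETS core CGGAA on either strand (TTCCG on the other).

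DUSP6 chr12:89352502-89352751, minus strand: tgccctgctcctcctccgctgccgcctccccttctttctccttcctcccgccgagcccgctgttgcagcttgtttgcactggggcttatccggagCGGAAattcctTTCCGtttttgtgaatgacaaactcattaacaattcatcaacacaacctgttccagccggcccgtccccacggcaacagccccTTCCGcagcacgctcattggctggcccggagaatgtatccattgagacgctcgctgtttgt
PHLDA1 chr12:76031777-76032026, minus strand: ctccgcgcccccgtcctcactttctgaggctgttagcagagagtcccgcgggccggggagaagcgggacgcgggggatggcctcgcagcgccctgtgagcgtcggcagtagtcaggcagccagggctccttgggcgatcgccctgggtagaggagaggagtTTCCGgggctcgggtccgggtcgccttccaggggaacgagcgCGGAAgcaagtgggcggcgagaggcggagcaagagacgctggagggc
SPRY2 chr13:80341127-80341376, minus strand: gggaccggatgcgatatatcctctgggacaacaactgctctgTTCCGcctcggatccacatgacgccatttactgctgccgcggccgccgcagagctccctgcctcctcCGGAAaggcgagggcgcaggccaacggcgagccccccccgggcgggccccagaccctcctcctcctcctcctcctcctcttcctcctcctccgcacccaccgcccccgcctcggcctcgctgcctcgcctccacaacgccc

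The DUSP6 window held 3 matches to this core, the PHLDA1 window 2 and the SPRY2 window 2. The core occurs in 30.3% of all 35116 windows of this length, against 3 of the 9 member windows, so its presence does not set these genes apart. The longer ETS form CCGGAAG (8.52% of all windows; it contains the core), the cyclic AMP response element TGACGTCA (1.65%), the AP-1 site TGANTCA (6.57%), the CIC octamers TGAATGAA (1.4%) and TGAATGGA (0.832%) and the CArG box of serum response factor (1.16%) had 0 matches in the 9 windows. A match is a description of the letters, and genes with opposite differences, DUSP6 and PHLDA1, both had the core.

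Other genes of the pathway in H929 were taken from 5 lists of 92 genes in all: family relatives of the members, receptors and adaptors, the RAS-RAF-MEK-ERK core, other brakes, and ERK effectors and outputs. Of 77 tested, 14 were higher and 47 lower, or 79.2%, against the 72.2% called among all genes. After median scaling the split was 21 higher and 27 lower, beside 3932 higher and 3312 lower of all 10360 genes. The scaled counts of each H929 list below stand beside this same background. Family relatives gave 0 higher and 9 lower of 11, with a median log2 difference of -0.67 against -0.13 over all genes tested. An unadjusted limma p below 0.05 was found for 9 of these 11 and for 7694 of all 10360 genes. After median scaling, 1 family relative was higher and 7 were lower. DUSP8, a phosphatase of JNK and p38, was at 0.192 ± 0.046 against 3.79 ± 0.309 FPKM (mean ± SD, n = 3 each). PHLDA3 was at 15.7 ± 1.09 against 39.9 ± 1.38 FPKM and DUSP16 at 2.28 ± 0.256 against 6.37 ± 0.291 FPKM. The direction of the PHLDA relative thus matched that of PHLDA1, and no family relative was called higher in the unscaled values.

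Receptors and adaptors in H929 gave 3 higher and 9 lower of 16, and 5 higher and 4 lower after median scaling. FGFR3, a fibroblast growth factor receptor that H929 expresses from a translocated locus, was at 752 ± 45.8 FPKM in the libraries labelled shRBM39 against 227 ± 12.6 FPKM (n = 3 each), or 1.73 higher on the log2 scale (limma adjusted p = 4.54e-11, SE 0.0521). Its docking protein FRS2 was lower, at 1.87 ± 0.0146 against 3.38 ± 0.206 FPKM, and so was FGFR1, at 1.03 ± 0.0934 against 2.47 ± 0.159 FPKM. The adaptor SHC1 was higher, at 192 ± 2.89 against 144 ± 1.42 FPKM, as was INSR, at 22.9 ± 1.88 against 18.7 ± 0.396 FPKM, while the phosphatase PTPN11, which promotes RAS activation, was lower at 21 ± 1.11 against 28 ± 0.674 FPKM.

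The core had 5 higher and 9 lower of 17, with 6 and 5 after median scaling. NRAS, the mutated RAS gene of H929, was at 169 ± 1.57 against 91.9 ± 4.41 FPKM, and HRAS at 39.7 ± 1.62 against 62.8 ± 3.2 FPKM, so these RAS genes differed in opposite directions. BRAF, a RAF kinase gene, was lower, at 2.65 ± 0.257 against 4.76 ± 0.146 FPKM. MAPK3, which codes for ERK1, was higher, at 26.1 ± 0.593 against 16.7 ± 1.26 FPKM, and MRAS lower, at 0.463 ± 0.0984 against 1.35 ± 0.0222 FPKM. Other brakes had 3 higher and 9 lower of 15, with 4 and 3 after median scaling. Higher brakes were the RAS inhibitors RASA3, at 77.4 ± 2.17 against 53.4 ± 0.954 FPKM, and RASA1, at 8.42 ± 0.378 against 6.92 ± 0.638 FPKM, and the ubiquitin ligase CBL, at 20.3 ± 2.79 against 16.8 ± 0.458 FPKM. The docking protein DOK2 was lower, at 2.95 ± 0.647 against 13 ± 0.614 FPKM, as was LZTR1, which targets RAS for degradation, at 16.1 ± 0.817 against 29.6 ± 0.932 FPKM.

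Effectors and outputs in H929 gave 3 higher and 11 lower of 18, and 5 and 8 after median scaling. Of the ligands of the EGF receptor family, HBEGF and AREG were lower and EREG was below the filter. HBEGF was at 3.22 ± 0.21 against 21.2 ± 0.51 FPKM and AREG at 0.296 ± 0.0264 against 4.04 ± 0.171 FPKM (n = 3 each). The potassium channel gene KCNN4 was at 97.6 ± 4.12 against 200.4 ± 4.45 FPKM. Among nuclear targets, the ETS factor gene ELK1 was higher, at 16.5 ± 1.06 against 6.08 ± 1.06 FPKM, as was the immediate early gene EGR1, at 6.67 ± 0.0952 against 3.19 ± 0.263 FPKM. The ERK-activated kinase gene RPS6KA3 was at 7.58 ± 0.601 against 3.83 ± 0.216 FPKM. As within the members, genes of this list lay on both sides, with 77.8% called against 72.2% of all genes tested. The list holds both effectors and outputs of ERK, and EGR1 was its only immediate early gene called higher. Lower genes of the list also included PLAUR, FOSL1 and IER3, at log2 differences of -1.51, -1.19 and -1.13.

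In MM1S, SPRY2, SPRY4 and ETV4 were close to absent, which left 7 of the 10 genes for testing in each experiment. SPRY2 lay between 0.03 and 0.33 TPM and SPRY4 between 0.01 and 0.34 TPM over all 10 libraries. Their relative SPRY1 was expressed. With shRBM39 it was at 7.77 ± 0.431 TPM against 11.5 ± 1.44 TPM (2 libraries each; limma adjusted p = 0.116). Under indisulam it was at 4.06 ± 1.35 TPM against 7.09 ± 1.25 TPM (3 libraries each; limma adjusted p = 0.0726, and 0.00993 after median scaling). In H929 SPRY2 and SPRY4 were among the lower members as well, but at 3.2 FPKM or more in scramble. ETV4 was at most 1.05 TPM in MM1S. Tables were normalized separately and in different units, so levels between the lines, and between the MM1S experiments, were not tested. DUSP5 had the highest mean of the 10 genes in each of the 6 RNA-seq groups, at the 98.2nd to 99.5th percentile of the rows of its table.

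With shRBM39 in MM1S, only ETV5 passed the test, on its lower side, and DUSP4 had the largest higher value without passing. Of 14133 genes tested on log2(TPM + 1), 10.3% were called, 3.98% higher and 6.37% lower, and among the members 1 of 7 was called. An unadjusted limma p below 0.05 was found for 3 of 7 members and for 4550 of all 14133 genes. ETV5 was at 9.7 and 5.44 TPM with scramble and fell to 1.74 and 2.41 TPM with shRBM39. The groups did not overlap, the scramble libraries lay apart from each other, and the log2 change was -1.44 (limma adjusted p = 0.0486, SE 0.309). That call lay at the threshold: it was lost after median scaling (limma adjusted p = 0.0504), with a replicate block (0.0894) and without limma's trend and robust options (0.0586). With a library left out, the log2 change ran from -1.81 to -1.08. Such a fit leaves 1 library in a group, so its calls are not read for any gene. Its paralog ETV4 was at 1.05 and 0.78 TPM with scramble and at 0.15 and 0.03 TPM with shRBM39, without overlap but below the filter of 1 TPM in 2 libraries, so it was not tested.

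The other members in the MM1S knockdown did not pass. DUSP4 was at 9.12 and 15.1 TPM with scramble and at 26.4 and 21.3 TPM with shRBM39, a log2 difference of 0.95 (95% interval 0.29 to 1.62, limma adjusted p = 0.0772). DUSP5 was at 176 and 159 TPM against 143 and 116 TPM, a log2 difference of -0.37 (95% interval -0.76 to 0.01, limma adjusted p = 0.163). Neither phosphatase overlapped between the groups, but 62.4% of all genes tested (30.5% higher, 31.9% lower) had groups that did not overlap with 2 libraries each, against 1 member higher and 3 lower of 7. DUSP6 overlapped, at 8.09 and 15.9 TPM with scramble and at 8.76 and 4.37 TPM with shRBM39 (log2 difference -0.78, 95% interval -1.82 to 0.27, limma adjusted p = 0.259). SPRED2 was at 16.1 and 13.7 TPM against 11.6 and 7.87 TPM (log2 difference -0.58, limma adjusted p = 0.145). SPRED1, at 9 and 9.67 TPM against 9.1 and 10.7 TPM, and PHLDA1, at 5.64 and 8.19 TPM against 7.43 and 7.93 TPM, overlapped between the groups, with log2 differences of 0.07 (95% interval -0.35 to 0.50) and 0.15 (95% interval -0.40 to 0.71). Within libraries, the ratio of DUSP4 to DUSP5 was 0.0518 and 0.0948 with scramble and 0.184 and 0.183 with shRBM39.

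**Figure D2:**
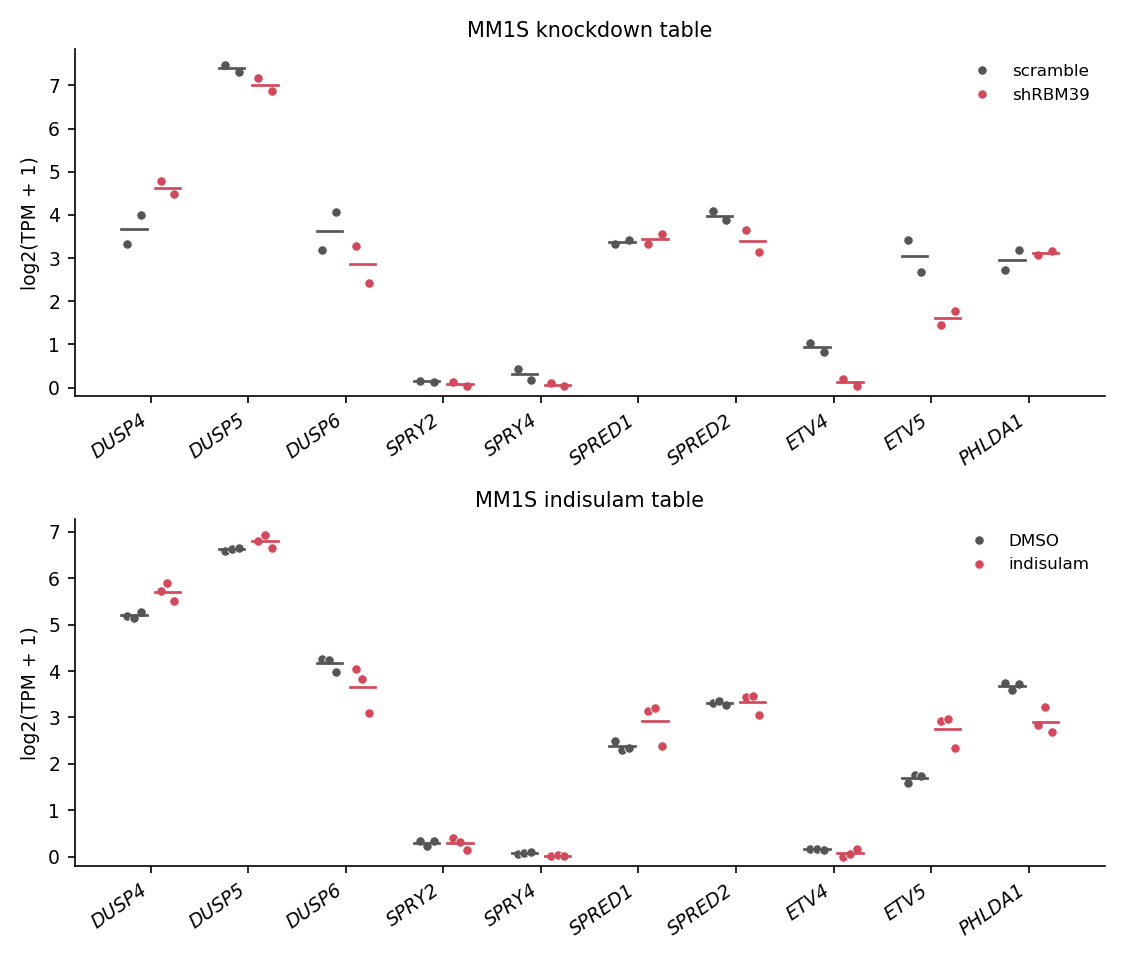
Levels of the 10 genes in MM1S as log2(TPM + 1), with a point for each library and a bar at the group mean: above, 2 scramble (grey) and 2 shRBM39 (red) libraries; below, 3 DMSO (grey) and 3 indisulam (red) libraries. ETV5 lies lower with shRBM39 and higher with indisulam, SPRY2 and SPRY4 lie near 0, and the spread between libraries of a group is wider than in H929.

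Pathway genes in the MM1S knockdown were called in 5 of 70 cases, or 7.14% against 10.3% of all genes, 2 higher and 3 lower. LZTR1 rose from 15.1 ± 1.31 to 46.5 ± 7.98 TPM (mean ± SD, n = 2 each), with a log2 change of 1.55 (limma adjusted p = 0.0156, SE 0.172). ARAF, another RAF kinase gene, rose from 28 ± 2.18 to 49.6 ± 4.11 TPM. RPS6KA3 fell from 26 ± 3.59 to 11.8 ± 1.61 TPM, ELK1 from 15.5 ± 0.495 to 7.37 ± 2.09 TPM and SHC1 from 110.0 ± 2.7 to 73.3 ± 5.16 TPM. With a replicate block, 1 pathway gene was called. By list, family relatives had 0 calls of 8 (4 at an unadjusted limma p below 0.05), receptors and adaptors 1 of 16, the core 1 of 16, other brakes 1 of 15 and effectors and outputs 2 of 15. Over all 14133 genes tested, 4550 had an unadjusted limma p below 0.05.

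With indisulam in MM1S, ETV5 and DUSP4 rose and PHLDA1 fell, and the other 4 tested members did not pass. The background here was 29.9% of 13427 genes called, 8.49% higher and 21.4% lower, against 3 of 7 members, 2 higher and 1 lower. Groups without overlap were found for 47.3% of all genes (14.9% higher, 32.3% lower), and for 3 members higher and 1 lower of 7. Since replicate 3 lay apart from the other treated libraries, values without it follow each gene.

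ETV5 was at 2, 2.37 and 2.34 TPM in DMSO and at 6.58, 6.79 and 4.07 TPM with indisulam. All treated libraries lay above all controls, the lowest being replicate 3, and the log2 change was 1.05 (limma adjusted p = 0.0109, SE 0.214). Without replicate 3 it was 1.25 (limma adjusted p = 1.14e-04), and over 12 alternatives the adjusted p ran up to 0.0603. DUSP4 was at 35.5, 34.5 and 37.5 TPM in DMSO and rose to 52.1, 58.7 and 44.2 TPM, a log2 change of 0.51 (limma adjusted p = 0.0235, SE 0.128). Without replicate 3 the change was 0.61 (limma adjusted p = 4.48e-04), while a replicate block gave an adjusted p of 0.0595. PHLDA1 fell from 12.3, 11.1 and 12.2 TPM to 6.1, 8.31 and 5.46 TPM, a log2 change of -0.77 (limma adjusted p = 0.0202, SE 0.186). That fall was -0.66 without replicate 3 (limma adjusted p = 0.0038) and had an adjusted p of 0.055 with a replicate block. Leaving out a DMSO library ended the calls of ETV5, DUSP4 and PHLDA1, whichever of the 3 was left out, with each keeping its direction. The call of DUSP4 also ended without indisulam replicate 1 or 2, and that of PHLDA1 without indisulam replicate 1.

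The other 4 tested members did not pass with indisulam, and 2 of them did so without replicate 3. SPRED1 was at 4.66, 3.9 and 4.09 TPM in DMSO and at 7.84, 8.25 and 4.25 TPM with indisulam. Replicates 1 and 2 were well above DMSO and replicate 3 within its range, so the log2 difference was 0.53 (limma adjusted p = 0.148) with it and 0.80 (limma adjusted p = 6.49e-04) without it. DUSP6 was at 18.2, 17.9 and 14.8 TPM in DMSO and at 15.6, 13.1 and 7.58 TPM with indisulam, with replicate 3 the lowest (log2 difference -0.51, limma adjusted p = 0.178; -0.23 and 0.131 without it). After median scaling, SPRED1 (limma adjusted p = 0.0126) and DUSP6 (0.0316) were called, in the same directions. DUSP5 was at 95.3, 97.4 and 98.5 TPM against 109.9, 120.3 and 99.4 TPM, without overlap, a log2 difference of 0.17 that did not pass (limma adjusted p = 0.21). It was 0.24 without replicate 3 (limma adjusted p = 0.00979). SPRED2 overlapped, at 8.93, 9.27 and 8.58 TPM against 9.85, 10.1 and 7.32 TPM, with a log2 difference of 0.01 (95% interval -0.39 to 0.42). Without replicate 3, 5 of 7 members were called, 4 higher and 1 lower, against 65.6% of all 14220 genes tested, 37.8% higher and 27.8% lower.

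Within libraries, the ratio of DUSP6 to DUSP5 was 0.191, 0.184 and 0.151 in DMSO and 0.142, 0.109 and 0.0762 with indisulam, lower in each treated library. In H929 the libraries labelled shRBM39 had the higher values of the same ratio. The ratio of SPRED1 to SPRED2 was 0.522, 0.421 and 0.477 in DMSO and 0.796, 0.818 and 0.581 with indisulam, so the treated libraries, replicate 3 included, all lay above DMSO on this measure. Both ratios are free of any scaling between libraries.

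Of the pathway genes, 12 of 67 were called with indisulam, or 17.9% against 29.9% of all genes, 7 higher and 5 lower. After median scaling 17 were higher and 9 lower, beside 2580 higher and 2950 lower of all 13427 genes. Without replicate 3, 42 of 68 were called, 33 higher and 9 lower, beside 65.6% of all genes (37.8% higher, 27.8% lower). Adaptors and RAF-level genes rose: GAB1 from 8.72 ± 0.801 to 35.6 ± 18.6 TPM, GAB2 from 3.77 ± 0.186 to 7.79 ± 2.52 TPM, FRS2 from 2.09 ± 0.164 to 5.46 ± 2.33 TPM, BRAF from 5.06 ± 0.159 to 13.2 ± 3.94 TPM and the scaffold gene KSR1 from 0.883 ± 0.0907 to 2.2 ± 0.903 TPM (mean ± SD over 3 libraries). The RAS inhibitor gene NF1, whose protein SPRED1 binds, rose from 2.68 ± 0.318 to 6.8 ± 2.16 TPM, and PHLDA3 from 1.23 ± 0.527 to 6.67 ± 0.722 TPM. MAPK3 fell from 59.5 ± 1.91 to 31 ± 1.09 TPM (log2 change -0.92, limma adjusted p = 7.36e-04, SE 0.096), RRAS from 8.61 ± 1.26 to 5.34 ± 0.815 TPM (a call lost after median scaling, limma adjusted p = 0.104) and DOK1 from 16.6 ± 1.51 to 11.1 ± 0.647 TPM. The phosphatase gene DUSP2 fell from 4.49 ± 0.56 to 1.9 ± 0.101 TPM and the urokinase receptor gene PLAUR from 3.19 ± 0.685 to 0.797 ± 0.0896 TPM. PHLDA3 and PHLDA1 thus changed in opposite directions with indisulam, whereas in H929 both were lower in the libraries labelled shRBM39.

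Set side by side, no member was called in the same direction in all 3 comparisons. The H929 directions are those of the labels, which its RBM39 transcript goes against, and each H929 sign would turn if the groups were exchanged. PHLDA1 was called lower in H929 and with indisulam, at -1.57 and -0.77, and was at 0.15 without a call in the MM1S knockdown; the shared direction of the first pair holds only with the H929 groups as labelled. ETV5 was called in each, at -0.43 in H929, -1.44 with shRBM39 in MM1S and 1.05 with indisulam, so the MM1S experiments went opposite ways. Its knockdown call lay at the threshold (limma adjusted p = 0.0486) and was lost after median scaling. The indisulam call of ETV5 was lost when any single DMSO library was left out. The controls of the MM1S experiments were also at different levels, with ETV5 at 5.44 and 9.7 TPM with scramble and at 2 to 2.37 TPM in DMSO. DUSP4 was likewise at 9.12 and 15.1 TPM with scramble but at 34.5 to 37.5 TPM in DMSO. Whether effects differ between comparisons was not tested, since the tables were normalized separately.

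**Figure D3:**
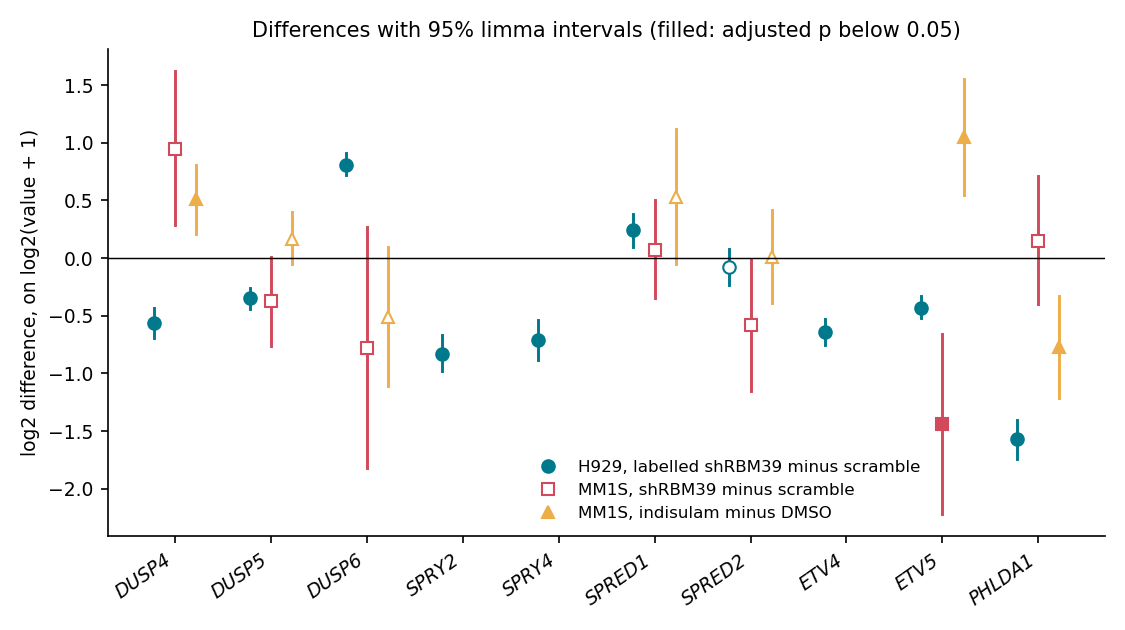
Log2 differences of the members that were tested, on the log2(value + 1) scale, with 95% limma intervals, for H929 (circles), the MM1S knockdown (squares) and indisulam (triangles). Filled symbols passed at an adjusted p below 0.05. ETV5 lies at -0.43, -1.44 and 1.05, and DUSP6 lies above 0 in H929 only.

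The order of levels among the 10 genes changed between groups. In H929 scramble it ran from DUSP5, at a mean of 522 FPKM, through DUSP6 (60.6), PHLDA1 (46.5), DUSP4 (45.8), ETV5 (31.7), ETV4 (30.8), SPRY4 (8.93), SPRED2 (7.48) and SPRY2 (3.27) to SPRED1 (3.07). PHLDA1 overlapped with DUSP4, and ETV5 with ETV4. In MM1S with scramble, DUSP5 (168 TPM) was followed by SPRED2 (14.9), DUSP4 (12.1), DUSP6 (12), SPRED1 (9.34), ETV5 (7.57) and PHLDA1 (6.91), each of the last 6 overlapping with its neighbour. In DMSO, DUSP5 (97.1 TPM) was followed by DUSP4 (35.8), DUSP6 (17), PHLDA1 (11.8), SPRED2 (8.93), SPRED1 (4.22) and ETV5 (2.24), with no overlap between neighbours. FPKM and TPM are both per length of transcript, so levels can be set against each other between genes within a table. The antisense genes SPRY4-AS1 and ETV5-AS1 were at most 0.63 and 0.39 TPM in MM1S. Whether strand was used in counting is not given in the sources used here, so reads of a gene and its antisense partner cannot be told apart.

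Likeness of pattern was measured as the root mean square distance between genes over the 16 libraries, on log2 values centred within each table, among 9267 genes tested in all 3 comparisons. For each member, other genes lay nearer than any fellow member, but these other genes far outnumber the members. The nearest member was also below the median distance to all genes, such as 0.401 against 0.494 for DUSP6 and 0.147 against 0.291 for DUSP5. The smallest of several distances tends to lie below a median, so this shows no likeness. For DUSP4 and SPRED1 the nearest member lay beyond the gene's own spread, at 0.373 against 0.367 and 0.292 against 0.249. For the other members with a value it lay within that spread. A nearest gene is picked as the smallest of many, so whether members are alike as a set was not tested. The gene nearest to DUSP6 was MAK16, at 0.175, followed by LRRC59 (0.18) and CYP51A1 (0.191), while its nearest fellow member, SPRED2, was at 0.401, not far below the spread of DUSP6 itself (0.454). PHLDA1 was nearest to MAN1C1 (0.166), DOCK5 (0.181) and NLRX1 (0.191), with its nearest member, DUSP5, at 0.518. ETV5 was nearest to KIF18A (0.16), then to KSR1 (0.206) and NF1 (0.217), which are both in the pathway lists. DUSP4 was nearest to ST3GAL2 (0.123), PNPLA2 (0.127) and ARFIP2 (0.132). SPRED1 was nearest to ANKRD13A (0.0714), NFX1 (0.0793) and ZMYM4 (0.0819). The closest pair of members was DUSP5 with SPRED2, at 0.147, and DUSP5 had MLF2 (0.0736) and PI4K2A (0.0786) nearer. SPRED2 had POLR1E (0.0847), GATAD2A (0.0866) and SYNM (0.0995). SPRY2, SPRY4 and ETV4 were not tested in all 3 comparisons and have no such value.

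RIP asked which RNAs came down with RBM39 in MM1S. DUSP5, ETV4, SPRED1 and DUSP6 had the higher values with the RBM39 antibody, and PHLDA1 and ETV5 had the lower ones. With 1 library of each kind there is no replicate and no test, and the ratio is to IgG, not to the input RNA. Of 10966 genes that reached 1 FPKM with RBM39 or with IgG, 46.6% lay past a 2-fold ratio on log2(FPKM + 1), 22.7% higher and 23.9% lower with RBM39, and the median log2 ratio of all these genes was 0.02. Among the members 8 passed that minimum, of which 4 were past the fold higher and 2 lower, with a median log2 ratio of 0.94.

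DUSP5 was at 254 FPKM with the RBM39 antibody and at 58.7 FPKM with IgG, a log2 ratio of 2.09 and the 94.9th percentile of all genes kept. ETV4 was at 3.11 FPKM and was listed at 0 with IgG, a log2 ratio of 2.04 that depends on the added 1 FPKM. SPRED1 was at 36.7 against 14.1 FPKM (log2 ratio 1.32) and DUSP6 at 23.8 against 9.59 FPKM (log2 ratio 1.23). These 4 genes lay at the 82.9th percentile or above. DUSP4, at 48 against 30 FPKM (log2 ratio 0.66), did not reach the fold, and SPRED2 was level, at 27.5 against 27.2 FPKM. PHLDA1 was at 6.81 against 20.1 FPKM, a log2 ratio of -1.43, and ETV5 at 6.91 against 15.2 FPKM, a log2 ratio of -1.03. The ETV paralogs thus lay on opposite sides of IgG. SPRY4, at 0.948 against 0.0553 FPKM, and SPRY2, at 0.0508 against 0 FPKM, were below the minimum. RBM39's own transcript was at 62.1 against 127 FPKM.

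**Figure D4:**
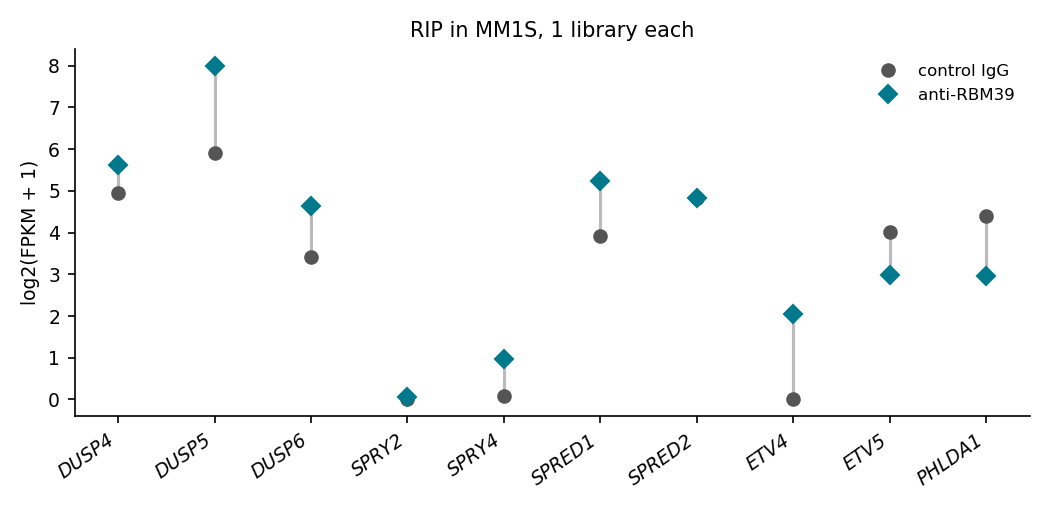
Levels of the 10 genes in the RIP libraries as log2(FPKM + 1), with control IgG as circles and the RBM39 antibody as diamonds, 1 library each. DUSP5, DUSP6, SPRED1 and ETV4 lie higher with the antibody, PHLDA1 and ETV5 lie lower, and SPRED2 coincides.

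Counts past the fold in the RIP are given for each list of other pathway genes, beside 22.7% higher and 23.9% lower over all genes kept. The lists are small and there was 1 library of each kind, so whether the lists differ was not tested. Family relatives had 4 of 9 past the fold higher and 0 lower, with PHLDA3 at 7.23 FPKM against 0 and DUSP8 at 5.12 against 0.113 FPKM. Receptors and adaptors had 5 higher and 1 lower of 17, among them IL6R, the receptor of a myeloma growth factor, at 479.6 against 159 FPKM. The core had 1 higher and 2 lower of 16, with RRAS2 at 12 against 82.8 FPKM. Other brakes had 6 higher and 1 lower of 16, including CIC, a repressor that ERK inactivates, at 67 against 30.3 FPKM, and RASA2 at 21.1 against 73.7 FPKM. Effectors and outputs had 3 higher and 3 lower of 15, with RPS6KA1 at 62 against 27.6 FPKM and the cyclin gene CCND1 at 4.47 against 23.1 FPKM. The RIP genes named here outside the members were chosen after their values were seen.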

How the data were processed

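Per the labels' protocols, TRIzol was used for the RNA and a SMARTER mRNA kit for the libraries. The authors deposited FPKM values (fragments per length of transcript and depth) for H929 and for RIP. They deposited TPM values for both MM1S experiments, as each column sums to 999999 to 1000001. No source used here gives the aligner, counter, annotation or strand. Mouse builds (GRCm38, mm10) are named for these human cells, per the submitters' processing notes. Read depth is unknown for MM1S and RIP, so no counting interval can be given.

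Unnamed rows of the MM1S tables (0.174 to 0.459% of TPM) and 27 symbols turned into dates were left out. All value columns were matched to samples (0 unmatched). Values were taken as log2(value + 1), with genes kept at 1 or more in at least 3 libraries (2 in the MM1S knockdown). Each comparison was fitted on its own table with limma 3.58.1 (R 4.3.3; trend and robust), and p-values were adjusted by Benjamini-Hochberg over all genes tested. RIP was described by ratios past a log2 of 1. Members were all described; of the pathway lists, up to 3 called genes per list and direction were named, those with the lowest adjusted p, and a few of these are not reported here. Pseudocounts, filters, scalings, replicate blocks and left-out libraries were tried as alternatives. The members and lists were chosen with earlier results of these data known.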

Additional observations from a re-analysis of the deposited data

Results flagged for a closer look

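In 16 of the genes reported here, all libraries labelled shRBM39 lay on one side of scramble in H929 and on the opposite side in MM1S. The difference between the lines was not tested, since their tables were normalized separately, and 3195 of 9509 genes tested in both lines (33.6%) showed such a pattern. Every one of these opposite directions rests on the H929 labels, which the RBM39 transcript goes against. With the H929 groups exchanged, the H929 signs below would turn and both lines would have the same direction in all 16. RBM39 itself was at a log2 difference of 2.81 in H929 and -1.69 in MM1S. DUSP4 was the only one of the 10 feedback genes among them, at -0.56 in H929 and 0.95 in MM1S.

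Of the family relatives, DUSP16 was at -1.17 in H929 and 0.33 in MM1S, and PHLDA3 at -1.29 and 0.98. Among receptors and adaptors, INSR was at 0.28 in H929 and -0.64 in MM1S, SHC1 at 0.41 and -0.58, GAB1 at -0.32 and 0.57, FRS2 at -0.61 and 0.59, and PTPN11 at -0.40 and 0.16. In the core, ARAF was at -0.18 in H929 and 0.80 in MM1S, BRAF at -0.66 and 0.54, and MAPK3 at 0.61 and -0.50. Among other brakes, RASA1 was at 0.25 in H929 and -0.32 in MM1S, and LZTR1 at -0.84 and 1.55. Of the effectors, RPS6KA3 was at 0.83 in H929 and -1.08 in MM1S, and ELK1 at 1.32 and -1.0.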

How the results depend on the processing

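In H929, 9 members were called whichever library was left out (9 to 9), and pathway calls ran from 56 to 62. The call on ETV5 in the MM1S knockdown, the 1 member called, fell to 0 with no filter, after median scaling and without limma's trend and robust options. Leaving out 1 library leaves a lone library in its group, which is assumed to vary like the other group, so calls are not counted there. The log2 change of ETV5 then ran from -1.81 to -1.08. The 5 pathway calls in the MM1S knockdown became 0 with no filter and 2 without trend and robust options. With indisulam, the 3 members called became 5 after median scaling and 6 after quantile normalization, and 0 to 5 with a library left out. The 12 pathway calls became 6 with no filter, 26 after median scaling, 28 after quantile normalization, and 4 to 42 with a library left out. The cause of these shifts was not tested.

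Signs turned only near 0: SPRED2 in H929 was at 0.09 after median scaling and 0.08 after quantile normalization. With a library left out, SPRED1 (-0.03 to 0.18) and PHLDA1 (-0.08 to 0.39) turned in the MM1S knockdown, as did SPRED2 with indisulam (-0.06 to 0.14). Over all genes, the share of higher calls in H929 was 33.4%, and 54.3% after median scaling and 49.6% after quantile normalization; with indisulam it was 28.4%, 46.7% and 52.1%. With indisulam, 4020 of all genes were called, 5530 after median scaling, 5798 after quantile normalization, and 1842 to 9332 with a library left out. In the MM1S knockdown, 1462 of all genes were called, against 0 with no filter (4960 at an unadjusted limma p below 0.05).

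Correlations between the deviations of same-numbered libraries were small. They were 0.129, 0 and 0.025 in H929 and -0.142 in the MM1S knockdown, where 2 libraries a group give a single value. For indisulam they were 0.137, -0.148 and -0.025. The best match carried the same number for replicates 1 and 3 in H929 and replicate 1 with indisulam, and not for the others. The labels do not say whether a number marks a shared culture. A replicate block left 0 members and 1 pathway gene called in the MM1S knockdown, with 263 of all genes, and 1 member with indisulam. A crossed replicate block, added after the data were seen, gave 0 members, 3 pathway genes and 740 of all genes in the MM1S knockdown.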
